A study of Mus musculus with 6 samples.

Results

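Heat shock chaperones are proteins that keep other proteins folded, and 10 of their genes are described here in mouse lung, selected by symbol from a table of 56980 genes. Of these, 7 are inducible members, whose transcription heat shock factor 1 (HSF1) raises when unfolded proteins accumulate: Hspa1a, Hspa1b, Hsph1, Dnajb1, Hsp90aa1, Hspb1 and Bag3. The other 3, Hspa8, Hspd1 and Hspe1, are constitutive members, abundant in unstressed cells. Every symbol matched 1 entry, and all 10 passed the filter of a mean of at least 1 TPM (a level per transcript length, relative to the library total), so none was lost.

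The 6 libraries were made from total RNA of lungs of NSG mice, an immunodeficient strain without mature T, B and natural killer cells, 5 weeks after human cells had been injected into the fourth mammary fat pad. The Ctrl group (n = 3) carried tumours of MDA-MB-231, a triple-negative breast cancer line of human origin, and the DPP3_KO group (n = 3) tumours of the same line with a knockout of DPP3, which encodes a dipeptidyl peptidase. Every host lung in the series thus came from a mouse given human cells, and the labels name no difference in host genotype between the groups, while mouse age and sex and the number of knockout clones are not stated in the labels. The series asks how DPP3 carried by tumour exosomes bears on lung metastasis, and these members were compared between lungs of hosts of tumours with and without it.

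The lung marker Sftpc, a surfactant gene, lay at 14519 to 38794 TPM in the 6 libraries. The secretoglobin gene Scgb1a1, a marker of airway club cells, lay at 71578 to 101282 TPM in Ctrl and at 217097 to 287457 TPM in DPP3_KO. Every library sums to the same total, so the share taken by Scgb1a1 lowers the TPM of other genes. The median log2 change of the 15650 genes tested was -0.60 as deposited. With Scgb1a1 left out of the library totals it was -0.33, so part of the shift remained. This median was -0.03 after rescaling by the median of ratios, which divides each library by the typical ratio of its genes to the average library. As deposited, 34% of the tested genes were called lower and 1.38% higher in DPP3_KO (limma, Benjamini-Hochberg adjusted p below 0.05), and after rescaling 0.882% and 1.9%. The 5321 genes called lower as deposited became 18 without Ctrl replicate 1, 71 without Ctrl replicate 2 and 4096 without Ctrl replicate 3. Without DPP3_KO replicates 1, 2 and 3 the count was 3163, 4993 and 1596. It thus depended on which library was left out, most on Ctrl replicates 1 and 2. A pseudocount of 1 TPM was added before taking log2, so the changes of low genes such as Hspa1a are understated. Since the scaling moves most genes together, each member's change is given both as deposited and rescaled. Whether each numbered replicate is its own mouse is not stated, so p-values reflect only the spread between these libraries, which may be technical, and TPM keeps no sequencing depth.

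In a resting cell HSF1 is held inactive by chaperones. When misfolded proteins draw the chaperones away, HSF1 forms trimers that bind heat shock elements, arrays of inverted GAA units, upstream of the inducible genes. HSP70 proteins (Hspa1a, Hspa1b, Hspa8) hold unfolded chains with the help of J-domain partners such as Dnajb1, exchange factors such as Hsph1 and Bag3 release them, HSP90 (Hsp90aa1) finishes the folding of kinases and receptors, Hspb1 keeps aggregating proteins soluble, and Hspd1 with its lid Hspe1 folds proteins inside mitochondria.

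The promoter stretches below are shown because they hold heat shock elements, the known binding sites of HSF1. RefSeq promoter windows (GRCm38.p6, an earlier build than the GRCm39 named for the deposited table; 250 bases before to 50 after a start) were found for 8 of the 10 members, and Hspa8 and Hsp90aa1 had no entry. The motifs searched were GAANNTTC and TTCNNGAA, each its own reverse complement, and they overlap in the 3-unit form, in which a further GAA or TTC unit follows in alternation after any 2 bases, read on both strands. A 2-unit element lay in the windows of 7 of these 8 members, against 17% of 27025 genes with an entry, and a 3-unit element in 3 (Hspd1, Hspe1, Hsph1), against 0.662%. In Bag3 the match began at base 43 after the start, the 3-unit element of Hsph1 also lay after the start (at base 37 or 16, in its 2 windows) and outside the stretch printed, and in Dnajb1 these letters were not in the window. In the stretches below, 5′ to 3′ on the strand of the gene, capitals mark the bases of 2-unit elements.
Hspa1a, chr17:34972222-34972281, minus strand: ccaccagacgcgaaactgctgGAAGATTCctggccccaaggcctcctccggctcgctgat
Hspa1b, chr17:34959304-34959363, minus strand: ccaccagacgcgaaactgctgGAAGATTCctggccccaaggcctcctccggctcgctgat
Hspb1, chr5:135887789-135887848, plus strand: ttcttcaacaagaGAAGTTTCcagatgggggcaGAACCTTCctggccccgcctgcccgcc
Hspe1, chr1:55088038-55088097, plus strand: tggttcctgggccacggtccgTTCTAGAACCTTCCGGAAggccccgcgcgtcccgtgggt
Hsph1, chr5:149636337-149636396, minus strand: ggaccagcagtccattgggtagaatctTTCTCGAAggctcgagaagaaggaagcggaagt

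The Hspa1a and Hspa1b stretches are the same in all 60 bases, and the 250 bases before their starts differ at 3 positions. The Hspe1 array is also the array of Hspd1, whose window on the opposite strand shares 285 bases with it, since these genes are transcribed away from a common promoter. A match of letters is a description and not evidence of binding.

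None of the 10 members was called higher or lower in DPP3_KO lungs, although 34% of the tested genes were called lower. As deposited, 0 of 10 passed in either direction (limma, adjusted p 0.192 to 0.889; 0 at an unadjusted p below 0.05, against 50.3% of tested genes), and the middle change of the 10 was 0.05 (log2), against -0.60 over all genes. After rescaling again 0 of 10 passed (adjusted p 0.0877 to 0.665; 4 at an unadjusted p below 0.05, all higher, against 23.1% of tested genes in either direction and 11.5% higher), with a median of 0.69 against -0.03. For 0 of 10 members did the deposited TPM of the groups not overlap, where 51.1% of tested genes were lower and 2.73% higher in every DPP3_KO library. All 10 estimates lay above the median gene, at the 65.8th to 96.8th percentile of changes as deposited and the 70.0th to 97.4th after rescaling. The rescaling moves most genes together and hardly alters their order, so the second range is not a separate observation.

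**Figure D1:**
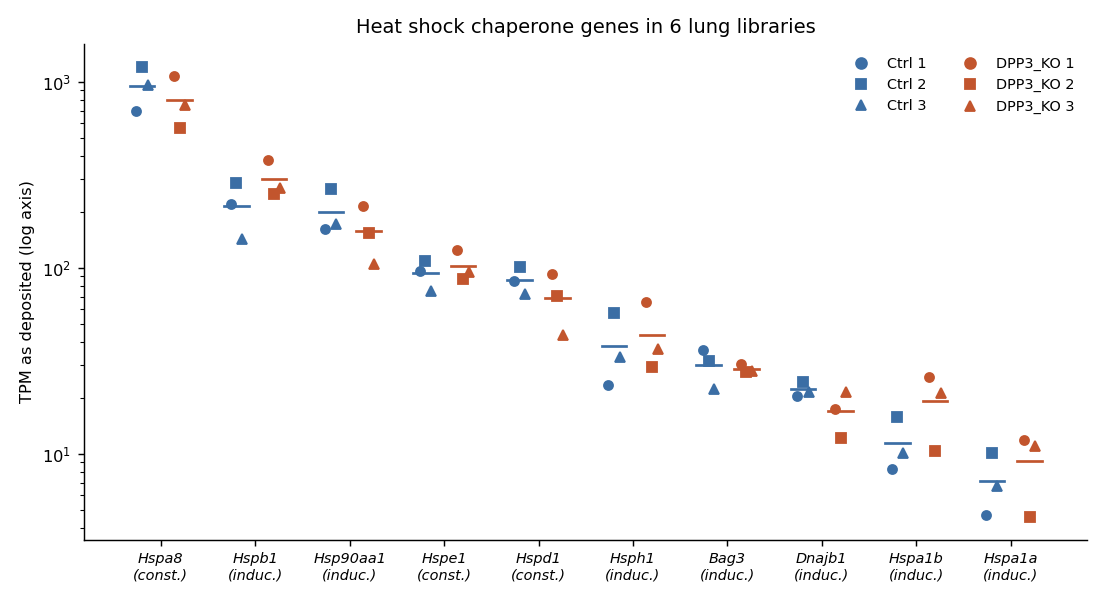
TPM as deposited (log axis) of the 10 members in the 6 libraries, ordered by the Ctrl mean; points are libraries, short bars are group means. The groups overlap for every member, from Hspa8 near the top to Hspa1a at 4.56 to 11.8 TPM.

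The order of levels was nearly the same in both groups. Hspa8 was highest, at 562 to 1209 TPM over the 6 libraries, and on its own made up 46.6% to 63.4% of the summed TPM of the 10 genes. Hspb1 and Hsp90aa1 followed and overlapped in Ctrl but not in DPP3_KO, then Hspe1 and Hspd1, which overlapped each other in both groups. Hsph1, Bag3 and Dnajb1 came next, with overlapping neighbours in Ctrl. Hspa1b and Hspa1a were lowest in Ctrl, at means of 11.4 ± 3.95 and 7.16 ± 2.77 TPM (SD, n = 3); in DPP3_KO Hspa1b overlapped Dnajb1. Together the 10 genes took 0.121% to 0.211% of all TPM.

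Among the inducible HSP70 genes, Hspa1b (ENSMUSG00000090877) lay at 8.31, 15.9 and 10.1 TPM in Ctrl and at 25.8, 10.3 and 21.3 TPM in DPP3_KO replicates 1 to 3. DPP3_KO replicate 2 lay within the Ctrl range and the other DPP3_KO libraries lay above it. The log2 change was 0.65 ± 0.37 (SE; 95% confidence interval -0.22 to 1.53; limma adjusted p = 0.192) as deposited and 1.27 ± 0.41 (0.29 to 2.24; adjusted p = 0.138) after rescaling. Without DPP3_KO replicate 2 it passed as deposited (1.02, limma adjusted p = 0.0468, where 0.901% of tested genes were called higher) but not after rescaling (1.73, adjusted p = 0.0699).

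Hspa1a (ENSMUSG00000091971), its neighbour on chromosome 17, was lower in every library, at 4.67, 10.2 and 6.67 TPM in Ctrl and 11.8, 4.56 and 11.0 TPM in DPP3_KO. The groups overlapped, since DPP3_KO replicate 2 was the lowest of all 6. Its log2 change was 0.27 ± 0.39 as deposited and 0.86 ± 0.43 after rescaling (limma adjusted p = 0.589 and 0.286). In GENCODE M21 transcripts, 47.1% of the 100-base windows of Hspa1a (1350 of 2868) occur unchanged in Hspa1b and 0 occur in Hspa8, so how the counting split reads between the pair is uncertain. Summed over both genes the level was 13, 26.0 and 16.7 TPM in Ctrl and 37.6, 14.9 and 32.3 TPM in DPP3_KO.

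Of the genes whose products release clients from HSP70, Hsph1 (ENSMUSG00000029657), the HSP110 exchange factor, lay at 23.4, 56.9 and 33.1 TPM in Ctrl and 65.2, 29.4 and 36.5 TPM in DPP3_KO. The spread within each group, more than 2-fold between the lowest and highest library, exceeded the difference of the means (log2 change 0.22 ± 0.40 as deposited, 0.86 ± 0.40 after rescaling). Bag3 (ENSMUSG00000030847), which links HSP70 to Hspb8 and to autophagy, stood at 36.1, 31.5 and 22.4 TPM in Ctrl and was even across DPP3_KO at 30.6, 27.5 and 27.9 TPM. Its log2 change was -0.04 as deposited and 0.60 after rescaling (limma adjusted p = 0.889 and 0.152). Dnajb1 (ENSMUSG00000005483), the J-domain partner that activates HSP70, was even across Ctrl, at 20.6, 24.5 and 21.5 TPM, and lay at 17.3, 12.1 and 21.4 TPM in DPP3_KO, with a log2 change of -0.40 ± 0.23 as deposited and 0.23 ± 0.29 scaled. Its sign thus turned with the scaling.

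Hsp90aa1 (ENSMUSG00000021270), the inducible cytosolic HSP90, lay at 162, 264 and 173 TPM in Ctrl and 215, 153 and 105 TPM in DPP3_KO. The groups overlapped, and the log2 change was -0.36 ± 0.31 as deposited and 0.30 ± 0.28 after rescaling. Hspb1 (ENSMUSG00000004951), the small heat shock protein HSP25 of mouse, lay at 219, 285 and 143 TPM in Ctrl and 380, 248 and 267 TPM in DPP3_KO. After rescaling its groups no longer overlapped, at 120 to 210 in Ctrl and 273 to 471 in DPP3_KO. Hspb1 had the smallest p of the 10 on that scale, a log2 change of 1.15 ± 0.29 (95% confidence interval 0.46 to 1.85, limma adjusted p = 0.0877), against 0.50 ± 0.29 as deposited (adjusted p = 0.206).

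Among the constitutive members, Hspa8 (ENSMUSG00000015656), the housekeeping HSP70 that also uncoats clathrin vesicles, lay at 694, 1209 and 965 TPM in Ctrl and 1079, 562 and 754 TPM in DPP3_KO. The groups overlapped, with a log2 change of -0.27 ± 0.31 as deposited and 0.39 ± 0.35 after rescaling. Hspd1 (ENSMUSG00000025980) lay at 85.2, 101 and 72.6 TPM in Ctrl and 93.1, 70.4 and 43.5 TPM in DPP3_KO (log2 change -0.37 ± 0.29, and 0.28 ± 0.25 scaled). Hspe1 (ENSMUSG00000073676) lay at 96.7, 109 and 74.6 TPM in Ctrl and 124.9, 87.5 and 94.4 TPM in DPP3_KO (0.13 ± 0.22, and 0.78 ± 0.22 scaled, limma adjusted p = 0.110). No test of the difference between the pair was made.

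**Figure D2:**
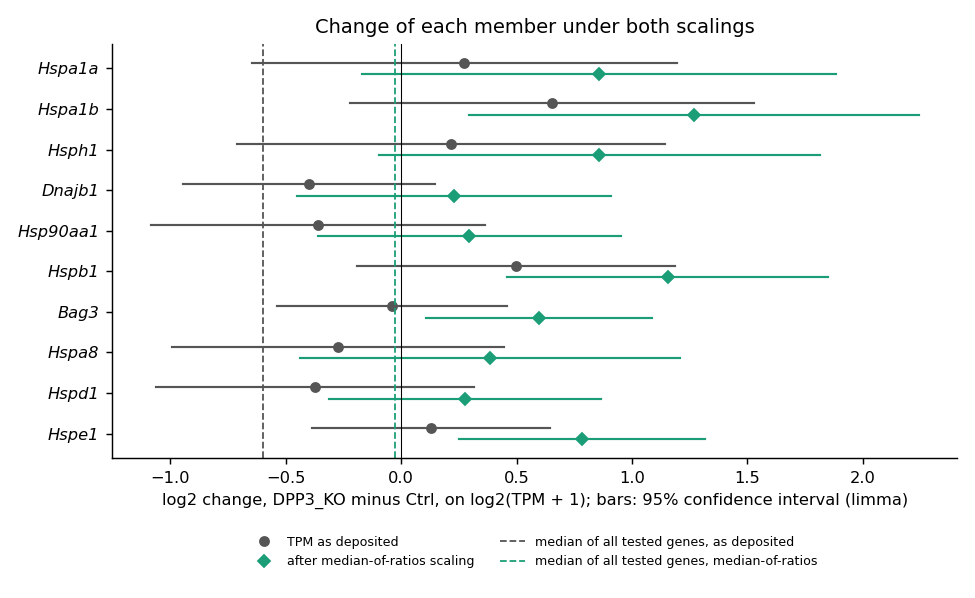
Log2 change of each member, DPP3_KO minus Ctrl, on the log2(TPM + 1) scale with 95% confidence intervals from limma, as deposited (grey circles) and after rescaling (green diamonds); dashed lines are the medians of all tested genes, -0.60 and -0.03. As deposited every interval spans 0, and every estimate lies to the right of the median gene.

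After rescaling the groups did not overlap for Hspb1, Bag3 and Hspe1, each higher in every DPP3_KO library. That is 3 of 10 members, where 14.6% of all tested genes were higher in every DPP3_KO library and 15.4% lower. Hspb1 and Hspe1 are the shortest members, at 903 and 774 bases in the table, and when the trend of each library with gene length was also removed their changes were 0.83 and 0.44, against 1.29 for Hspa1b and 0.59 for Bag3. With that trend removed 0 of 10 members passed (0 lower, 0 higher; limma), where 0.575% of tested genes were called lower and 1.18% higher.

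The inducible members were also set against the constitutive ones within each library, where the scaling of libraries nearly cancels. The mean log2(TPM + 1) of the 7 inducible genes minus that of the 3 constitutive genes was -2.48, -2.28 and -2.43 in Ctrl and -2.16, -2.30 and -1.86 in DPP3_KO. DPP3_KO replicate 2 lay within the Ctrl range, and the group means differed by 0.29 (-2.40 ± 0.10 and -2.10 ± 0.23, SD, n = 3). Without Hspa1a and Hspa1b the difference was 0.16. A score over chosen genes was given no test.

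Relative to Hspa8 in the same library, Hspa1b, Hsph1 and Hspb1 were higher in every DPP3_KO library than in any Ctrl library. That is 3 of the 9 other members, against 2.33% of tested genes higher in this way and 13.2% lower. This depended on the constitutive gene chosen. Relative to Hspd1 or to Hspe1 the groups overlapped for Hspa1b and Hsph1, and only Hspb1 still did not overlap. Hspa1b stood at 1.2%, 1.31% and 1.04% of Hspa8 in Ctrl and at 2.39%, 1.83% and 2.83% in DPP3_KO, a 1.98-fold difference of means. Hsph1 stood at 3.37%, 4.71% and 3.44% in Ctrl and at 6.04%, 5.23% and 4.84% in DPP3_KO, so its highest Ctrl value lay just below its lowest DPP3_KO value. Hspb1 stood at 31.6%, 23.6% and 14.8% in Ctrl and at 35.2%, 44.2% and 35.5% in DPP3_KO. The other 6 overlapped: Hspa1a at 0.673% to 0.839% in Ctrl and 0.811% to 1.46% in DPP3_KO, and Dnajb1 at 2.02% to 2.97% and 1.61% to 2.84%. With 3 libraries a group an exact permutation test cannot go below p = 0.1, and none is given.

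**Figure D3:**
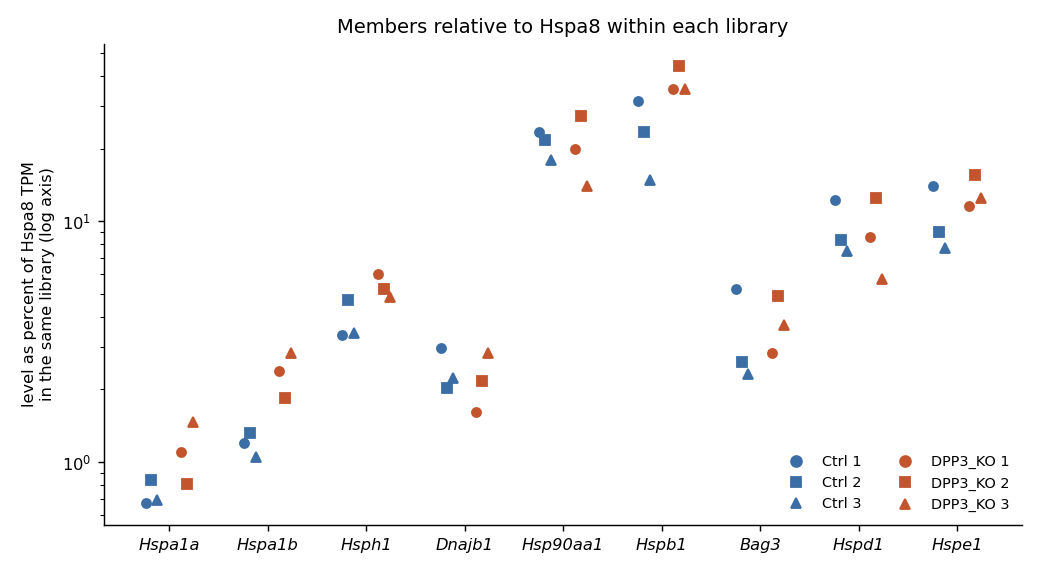
Level of the other 9 members as a percentage of Hspa8 TPM in the same library (log axis), by group. Hspa1b, Hsph1 and Hspb1 are the members whose DPP3_KO points all lie above the Ctrl points.

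The members shared their highest libraries within each group. For 8 of the 10 members, Ctrl replicate 2 was the highest Ctrl library and DPP3_KO replicate 1 the highest DPP3_KO library, against 19% of all tested genes. The exceptions were Dnajb1, highest in Ctrl replicate 2 and DPP3_KO replicate 3, and Bag3, highest in Ctrl replicate 1 and DPP3_KO replicate 1. After rescaling the count was 7 of 10, against 14.5% of genes. Of 19 other stress-responsive HSF1 targets 10 had the same highest libraries, among them Hsp90ab1, the constitutive HSP90 gene, at 615, 801 and 413 TPM in Ctrl and 807, 375 and 419 TPM in DPP3_KO. This pattern was noticed after the values were seen.

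The 2 genes listed as induced by mild cold were lowest in those same libraries. Cirbp and Rbm3 encode RNA-binding proteins whose transcripts rise when cells cool. Cirbp lay at 131, 97.7 and 119 TPM in Ctrl and 66.6, 122 and 89.4 TPM in DPP3_KO, and Rbm3 at 259, 216 and 329 TPM and 200, 367 and 412 TPM. Both were therefore lowest in Ctrl replicate 2 and DPP3_KO replicate 1, as were 9.27% of all tested genes. After rescaling both still were, beside 14.7% of all tested genes. Rbm3 was highest in DPP3_KO replicate 3, where Hspa1a (11.0 TPM) and Hspa1b (21.3 TPM) also lay above the Ctrl range. Between the groups neither passed as deposited (log2 change -0.36 and 0.24, limma adjusted p = 0.282 and 0.550). Neither passed after rescaling (0.30 and 0.90, limma adjusted p = 0.513 and 0.203).

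**Figure D4:**
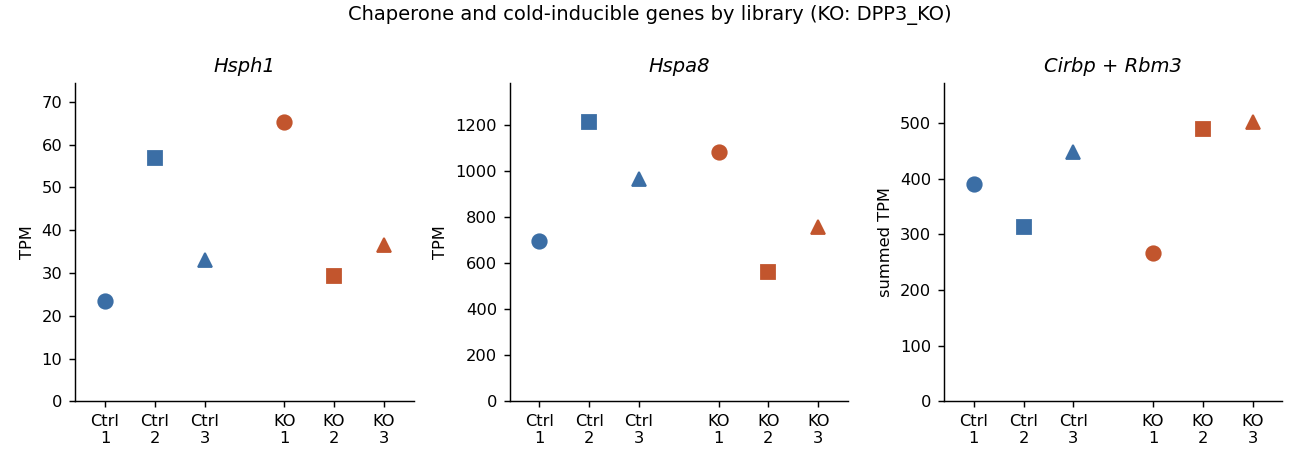
TPM as deposited of Hsph1 and Hspa8 and the summed TPM of Cirbp and Rbm3 in each library. Ctrl replicate 2 and DPP3_KO replicate 1 are the highest of their groups for the chaperones (56.9 and 65.2 TPM for Hsph1) and the lowest for the cold-inducible pair (313 and 266 TPM).

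The cell makeup of the libraries differed as well. Ctrl replicate 2 and DPP3_KO replicate 1 were the highest of their groups for 19% of all tested genes. They were so for 6 of 8 alveolar type 1, 6 of 12 capillary, 4 of 8 club cell and 2 of 6 tested adipocyte markers. The count was 1 of 12 for alveolar macrophage, 1 of 10 for ciliated and 1 of 13 for tested striated muscle markers. It was 0 of 12 for neutrophil, 0 of 8 for alveolar type 2 and 0 of 6 for erythroid markers. The summed TPM of the 12 neutrophil markers ran from 4110 to 53628 in Ctrl and from 1701 to 35301 in DPP3_KO. It was highest in Ctrl replicate 3 and DPP3_KO replicate 2. Without those libraries 0 members passed under either scaling. As deposited that fit called 2565 genes lower and 81 higher of 15650 tested. After rescaling it called 0 genes in either direction, so no member could have passed there. Between the groups, the summed TPM of 10 ciliated cell markers was 644 to 876 in Ctrl and 1082 to 1176 in DPP3_KO, and of 14 striated muscle markers 577 to 1198 and 2210 to 2457. Capillary markers summed to 2580 to 3210 TPM in Ctrl and 645 to 1226 TPM in DPP3_KO, alveolar type 1 markers to 3582 to 5915 TPM and 1110 to 2560 TPM, and 8 club cell markers to 75582 to 107459 TPM and 231424 to 300479 TPM. The 12 alveolar macrophage markers summed to 2498 to 4136 TPM in Ctrl and 311 to 2014 TPM in DPP3_KO. The groups did not overlap for any of these 6 lists. Of single tested genes, 51.1% were lower and 2.73% higher in every DPP3_KO library as deposited. The sums overlapped for the neutrophil, adipocyte, erythroid and alveolar type 2 markers, the last at 26130 to 48610 TPM in Ctrl and 18668 to 29502 TPM in DPP3_KO. No list had a marker at 0 in all libraries, the part of these cells in the chaperone values was not tested, and in bulk lung fewer cells of a type and less RNA per cell cannot be told apart.

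Heat shock factors and their regulators did not pass with all libraries. Of 7 tested members of that list 0 were called by limma (1 at an unadjusted p below 0.05, and 2 rescaled, beside 50.3% and 23.1% of tested genes), and the list median was -0.44 as deposited and 0.17 after rescaling. Hsf1 lay at 17.0, 34.5 and 27.3 TPM in Ctrl and at 16.2, 17.7 and 17.0 TPM in DPP3_KO (log2 change -0.55, limma adjusted p = 0.134; 0.08 scaled). Ctrl replicate 1 overlapped the DPP3_KO libraries. Hsf2, a relative of Hsf1, stood at -0.42 (adjusted p = 0.104), Hsbp1, which encodes a protein that binds HSF1, at -0.44 (adjusted p = 0.0884), and Trib1 at -0.46 (adjusted p = 0.130). As deposited, Hsbp1 was called lower without Ctrl replicate 3 (limma adjusted p = 0.0387) and Trib1 without DPP3_KO replicate 2 (limma adjusted p = 0.0466). Those fits called 4096 and 4993 of the 15650 tested genes lower. With all libraries Hsf2, Hsbp1 and Trib1 each moved less than the median gene (-0.60), and after rescaling they stood at 0.17, 0.21 and 0.17.

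Outside the 10 members, 138 tested genes were listed as chaperones, cochaperones, regulators or stress genes, and 46 of them fell and 1 rose as deposited, beside 34% of all tested genes called lower. Of the 138, 0 were called lower without Ctrl replicate 1 or without Ctrl replicate 2, and 43 without Ctrl replicate 3. Without DPP3_KO replicates 1, 2 and 3 the count was 29, 35 and 13. Each call lower named below was thus lost in at least 1 of these fits. Of 8 genes on a list of other HSP70 and HSP110 genes 5 fell, with a median of -0.75. Hspa4, an HSP110 relative of Hsph1, fell from a Ctrl mean of 54.3 ± 4.47 TPM to 26.1 ± 3.89 TPM (SD, n = 3; log2 change -1.04 ± 0.18, limma adjusted p = 0.0155), Hspa12a fell by 1.09 and Hspa13 by 0.88 on the log2 scale. After rescaling 0 of these were called lower, and Hspa2, a testis-enriched HSP70 gene named after its values were seen, was called higher (1.32, limma adjusted p = 0.045). That call was lost when any 1 library was left out (adjusted p 0.0589 to 0.160). Hspa2 lay at 9.08, 14.5 and 8.91 TPM in Ctrl and 22.4, 21.5 and 11.7 TPM in DPP3_KO.

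Of 16 other HSP90 genes and cochaperones 5 were called lower and 0 higher as deposited, with a median of -0.46. For this list and those that follow, the share over all tested genes was 34% lower and 1.38% higher. Cdc37, which brings kinases to HSP90, fell from a Ctrl mean of 132 ± 18 TPM to 53.5 ± 8.74 TPM (log2 change -1.29 ± 0.20, limma adjusted p = 0.0145) and stood at -0.64 after rescaling (adjusted p = 0.159). Hsp90b1, the HSP90 of the endoplasmic reticulum, fell by 0.87 on the log2 scale. Of 13 HSP70 exchange and CHIP cochaperone genes 5 were called lower, including Bag6 (-1.21), Bag5 (-0.91) and Bag1 (-0.56), relatives of Bag3. After rescaling Bag6, Bag5 and Bag1 stood at -0.57, -0.28 and 0.10. Of 28 tested J-domain genes other than Dnajb1, 9 fell, including Dnajc5 (-1.29), Dnajb12 (-1.01) and Dnajc8 (-0.99). None of these lists had a called member after rescaling, where their medians were 0.19, 0.10 and 0.19. At an unadjusted p below 0.05 they then had 2 of 16, 4 of 13 and 8 of 28, beside 23.1% of tested genes.

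Of the chaperones of other compartments, some were called lower as deposited, beside 34% of all tested genes. Of 20 genes of endoplasmic reticulum folding and the unfolded protein response 9 fell, with a median of -0.63; Hspa5 (BiP), the HSP70 of that compartment, went down from 412 ± 44.7 TPM to a DPP3_KO mean of 214 ± 16.8 TPM (log2 change -0.94, limma adjusted p = 0.0157), and Dnajc3 by 0.85. Of 12 mitochondrial chaperones and proteases 5 fell, including Trap1 (-0.80) and Grpel2 (-0.68), and Hspa9, the mitochondrial HSP70, did not pass (-0.42, adjusted p = 0.146). Of 8 subunits of TRiC, the cytosolic chaperonin that folds actin and tubulin, 5 were called lower. Among them were Cct5 (-0.69), Cct3 (-0.61) and Tcp1 (-0.58), near the median gene at -0.60. After rescaling Cct5, Cct3 and Tcp1 stood at -0.04, 0.04 and 0.07. After rescaling the medians of these lists were 0.03, 0.18 and 0.11, with 0 called and 3 of 20, 4 of 12 and 0 of 8 at an unadjusted p below 0.05, beside 23.1% of tested genes. Some genes sit in more than 1 of these lists.

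The small heat shock genes had a median of 0.24 as deposited and 0.85 after rescaling over 7 tested genes. Hspb7, a chaperone of heart and skeletal muscle, rose from a Ctrl mean of 23.5 ± 3.20 TPM to 55.4 ± 22.2 TPM (SD, n = 3; log2 change 1.12 ± 0.32, limma adjusted p = 0.0350; 1.76 scaled, adjusted p = 0.0241). Hspb7 was higher in every DPP3_KO library (60.2, 74.9 and 31.2 TPM) than in any Ctrl library (22.4, 27.1 and 21.0 TPM), in the libraries whose striated muscle markers were also higher. As deposited the call was kept without DPP3_KO replicate 3 (adjusted p = 0.0442) and lost when any other library was left out (adjusted p 0.0753 to 0.103). The rescaled call was likewise kept without DPP3_KO replicate 3 (adjusted p = 0.0351) and lost without any other library (adjusted p 0.0513 to 0.109). Hspb6 (0.82) and Cryaa (1.10) did not pass, nor did Cryab, the alpha-crystallin B gene of muscle and lens, at -0.63 (adjusted p = 0.236) and 0.02 scaled.

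Other stress genes were counted in the same way. Of 19 other HSF1 targets 4 were called lower and 0 higher as deposited, beside 34% and 1.38% of all tested genes. Their median was -0.23, against -0.60 over all genes. Rgs2 (-1.15), Zfand2a (-0.91) and the autophagy receptor gene Sqstm1 (-0.52) were among those called lower. After rescaling Rgs2, Zfand2a and Sqstm1 stood at -0.50, -0.30 and 0.13. Of 21 immediate early genes, which respond to handling and many stimuli within minutes, 4 fell, including Nr4a1 (-1.39), Klf4 (-1.01) and Jun (-0.77). After rescaling 0 members of either list were called (3 of 19 and 4 of 21 at an unadjusted p below 0.05, beside 23.1% of tested genes), with medians of 0.43 and 0.09.

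**Figure D5:**
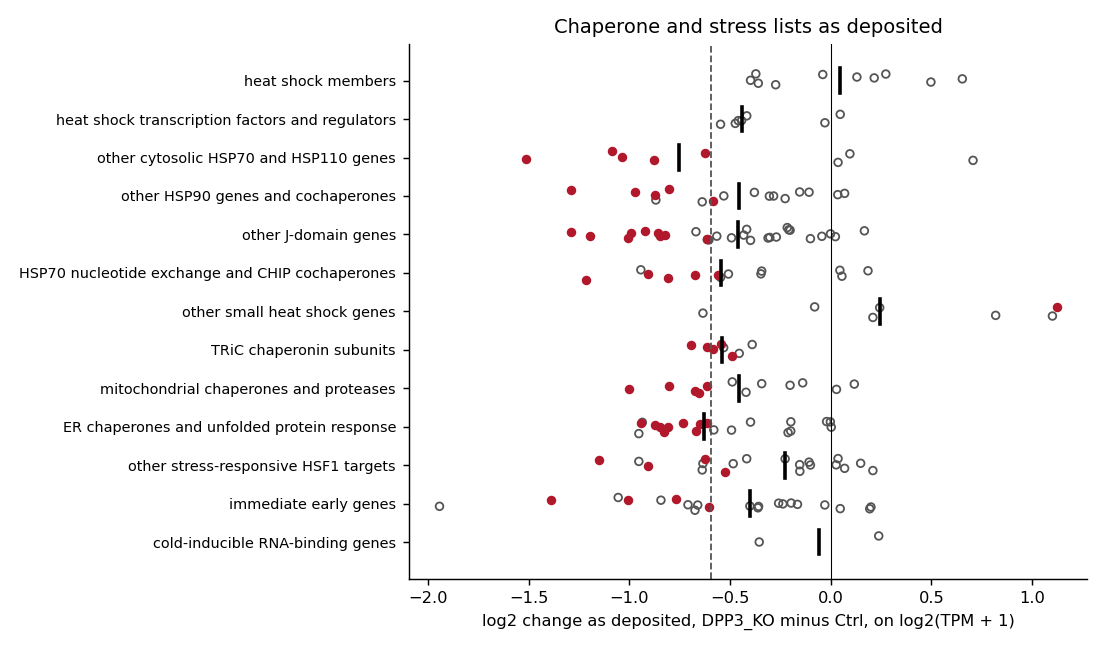
Log2 change as deposited of the 10 members and of the tested genes of each chaperone or stress list; filled red points passed (limma adjusted p below 0.05), open points did not, black bars are list medians, and the dashed line is the median of all tested genes (-0.60). The 10 members and the small heat shock genes are the lists with medians above 0, at 0.05 and 0.24.

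Genes whose course over the 6 libraries came near to the mean of Hspa1a, Hspa1b, Hsph1 and Dnajb1 were found by the root mean square distance of centred log2(TPM + 1) after rescaling. Among the nearest were Vstm4 (distance 0.18), Thsd7a (0.20), the adipogenin gene Adig (0.22), Zfp428 (0.23) and Tsga10ip (0.24). Some of these were low, with Tsga10ip at 0.26 to 1.8 TPM, Adig at 1.3 to 3.93 TPM and Zfp428 at 1.73 to 4.13 TPM. Of the genes averaged, Dnajb1 lay farthest from their mean, at 0.38, with 266 other tested genes closer. Hspa8 lay at a distance of 0.24 and Hspd1, the farthest member, at 0.53.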

How the data were processed

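The deposited values are TPM that the authors provided as 1 matrix with gene length; HISAT2, StringTie, RSEM and build GRCm39 are named, without versions or roles, in the submitters' processing notes. Which annotation release and strand setting were used, and how reads of human origin were handled, is not stated there. Groups came from the sample titles (the third Ctrl title reads 232 in place of 231). Other deposited numbers used were gene lengths in bases.

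Computed here: log2(TPM + 1), a mean of at least 1 TPM (15650 genes), and limma 3.58.1 in R 4.3.3 (lmFit, eBayes with trend), two-sided, Benjamini-Hochberg adjusted over all tested genes, threshold 0.05. Median-of-ratios factors used genes above 0 in every library. The fit was tested on simulated data with 200 changed genes. Depth is unknown, so no counting intervals are given. The members and lists were chosen with earlier results of these data known. Named were all members, the 3 genes with the smallest p of each list, 8 genes by name, and the 6 nearest in course, of which some are not reported here. Alternatives covered pseudocounts, filters, scalings, variance models, the replicate number and left-out libraries; leaving out the libraries richest in neutrophil markers was added after seeing the data.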

Additional observations from a re-analysis of the deposited data

How the results depend on the processing

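The count of members called, 0 lower and 0 higher, stayed at 0 under all 27 alternatives as deposited or rescaled, except that 1 member, Hspa1b, was called higher without DPP3_KO replicate 2. Leaving out each library in turn gave 0 to 1 members higher and 0 lower. After median-of-ratios scaling the counts stayed at 0 under every alternative tried there. Over these 27, Hspa1a, Hspa1b and Hspb1 were always above 0, at 0.04 to 1.35, 0.40 to 1.73 and 0.23 to 1.37, while Dnajb1, Hsp90aa1, Hspa8 and Hspd1 were above 0 in 10, 11, 11 and 11 and Bag3 in 14. The inducible minus constitutive difference was 0.17 to 0.39 when each library was left out, 0.37 without Ctrl replicate 3 and DPP3_KO replicate 2, 0.30 and 0.26 at pseudocounts of 0.1 and 5, and 0.39 with Hspa8 alone as the constitutive gene. Same-numbered libraries deviated from their group means with correlations across genes of 0.27, -0.21 and 0.15. The labels state no pairing, and with 3 libraries a group these values cannot show whether there was one. With the replicate block 0 members were called (smallest limma adjusted p = 0.198, and 0.143 with median-of-ratios scaling), and over all genes 4734 were lower and 212 higher, against 5321 and 216 without it (8 and 25 against 138 and 297 after that scaling). Over all genes, 3093 of 29859 were lower and 156 higher with no filter, 423 and 145 when TPM was rescaled without Scgb1a1, 140 and 327 after quantile normalization, 90 and 185 with the length trend also removed, and 2565 and 81 without Ctrl replicate 3 and DPP3_KO replicate 2 (0 and 0 after median-of-ratios scaling). Leaving out each library gave 18 to 4993 lower and 1 to 146 higher, or 6 to 166 and 17 to 170 after median-of-ratios scaling. With 3 libraries a group, the intervals of the members as deposited span 0, and differences within them were not detectable.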

Other observations

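Of the 45 ratios between pairs of members, 11 did not overlap between the groups, and 2 of them are given here. The share among pairs of all tested genes was not computed, and pairs share members. The count is therefore not a result about the members. Hspa1b stood at 1.78, 1.56 and 1.51 times Hspa1a in Ctrl and at 2.18, 2.26 and 1.94 times in DPP3_KO, and Hspd1 at 0.882, 0.928 and 0.973 times Hspe1 in Ctrl and at 0.745, 0.804 and 0.461 times in DPP3_KO. These pairs were chosen after their values were seen and were not tested; Hspa1a and Hspa1b share reads, and Hspd1 (2423 bases) and Hspe1 (774 bases) differ in length.

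Of 12 entries named as pseudogenes of these members, 8 were at 0 in every library. Hspd1-ps3 (ENSMUSG00000058809) was listed at 3.93, 1.11 and 5.87 TPM in Ctrl and at 0 in all 3 DPP3_KO libraries (limma adjusted p = 0.0197 as deposited, 0.0826 when rescaled by the median of ratios). Hspd1-ps4 lay at 0.18 to 0.70 TPM across the 6 libraries. Processed copies can take reads of the parent gene, so these values are uncertain.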
